A study of Mus musculus with 34 samples.

Results

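The loss of Mst1/2 was described here across all genes in total splenic dendritic cells (DCs), the antigen-presenting cells that start T cell responses. The comparison set the 3 arrays titled Mst1/2-KO total DCs against the 4 arrays titled WT total DCs, which are 7 of the 34 arrays of the series and all the total DC arrays among them, and it covered 22180 genes. The WT group holds DCs of C57BL/6 mice with no deletion named, and the Mst1/2-KO group DCs labelled with the genotype Mst1/2-/-. The allele, any Cre driver, the age and the sex of the mice are not given in the labels. All cells came straight from the spleen by flow sorting, with no stimulation named, and a few nanograms of RNA were amplified and biotin-labelled. The 16 arrays of sorted CD8+ and CD8- DCs, 4 for each subset and genotype and also C57BL/6, served to compare the mixed population with its main subsets. The labels do not say whether each array stands for a different animal, so the p-values measure the spread between these arrays, which may be technical.

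Mst1 (gene Stk4) and Mst2 (gene Stk3) are kinases at the top of the Hippo pathway. In its classical form they activate the LATS kinases, which hold the coactivators YAP and TAZ out of the nucleus and away from TEAD transcription factors. In immune cells Mst1 and Mst2 also act apart from YAP, in cell migration, survival and metabolism. Spleen DCs are a mixture of CD8+ DCs, known for cross-presenting antigen to CD8 T cells, CD8- DCs, which present mainly to CD4 T cells, and plasmacytoid DCs, known for type I interferon. A change in total DCs can therefore come with a change in the mixture or within a subset, and fewer cells of a type cannot be told apart from less RNA per cell in such bulk samples.

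The deposited values are log2 signals normalized by the authors, and every value below is on that scale unless a fold is named. A difference of 1 is a 2-fold change. Array medians lay between 4.12 and 4.2, and arrays correlated with each other at 0.985 to 0.993 over genes. No detection calls were used, so genes near the array medians cannot be separated from background. The DC genes carried high signals in both genotypes. Itgax, which encodes CD11c, lay at 10.21 to 10.50 in WT and 10.32 to 10.49 in Mst1/2-KO arrays, Flt3, the receptor for the DC growth factor, at 9.62 to 9.79 and 9.64 to 9.70, and H2-Ab1, an MHC class II chain, at 12.20 to 12.38 and 12.26 to 12.28. Of these genes and Zbtb46, a transcription factor of conventional DCs (7.85 to 8.06 and 8.09 to 8.19), none passed the test.

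Losing Mst1/2 changed 188 genes (0.848% of those tested, limma with Benjamini-Hochberg adjustment, adjusted p under 0.05). Of these, 118 fell (0.532%) and 70 rose (0.316%). The falls were larger: 58 of them (0.261%) reached 2-fold against 9 of the rises (0.0406%). The largest falls were H2-M2, a class I-like MHC gene, Cd4, the T cell co-receptor that also marks most CD8- DCs of the mouse spleen, and Mreg, which encodes melanoregulin. The largest rise of a gene with a known product was Plcb4, a phospholipase C beta. The median change over all genes was 0.00, and 50.7% of genes lay above 0. After cyclic loess normalization 68 genes rose and 201 fell, which takes the share of rises from 37.2% to 25.3%.

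**Figure D1:**
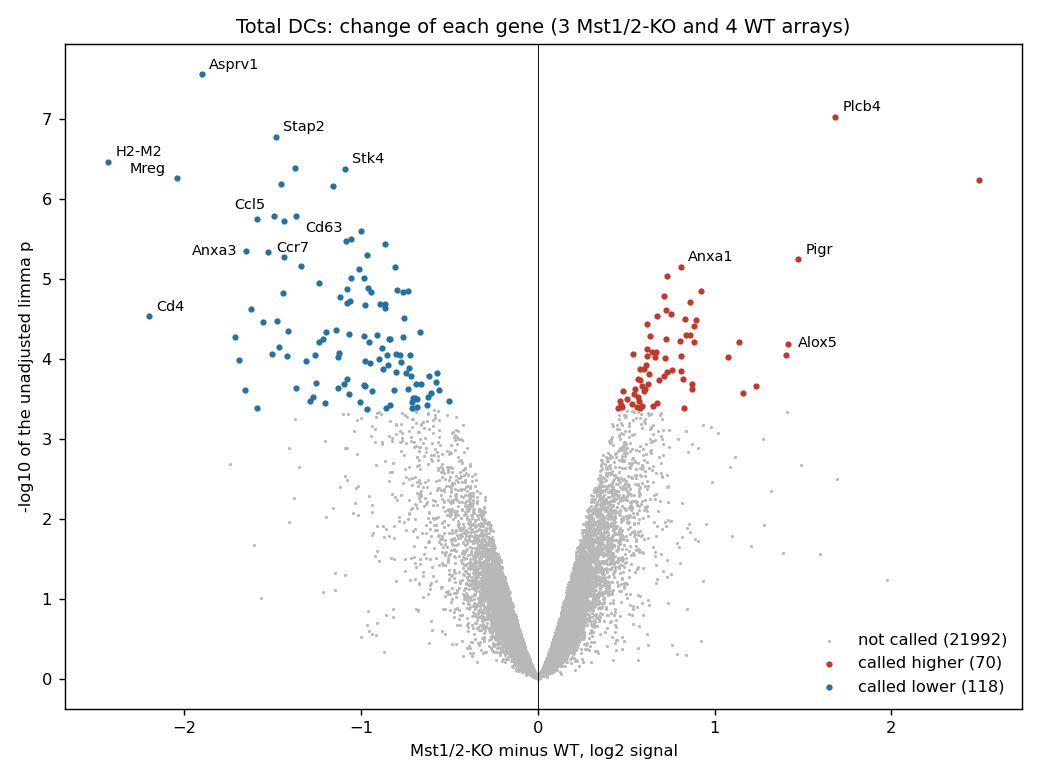
Each point is 1 of 22180 genes: the x axis is the difference of the mean log2 signals (3 Mst1/2-KO minus 4 WT arrays of total DCs), and the y axis is minus log10 of the unadjusted limma p. The 118 genes that fell (blue) reach -2.43 (H2-M2), while of the 70 that rose (red) 9 pass a difference of 1. The unnamed red point farthest to the right is 4931431B13Rik at 2.50.

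The number of genes called rested on single arrays. It was 118 without WT array 2, 124 without WT array 3, 89 without WT array 4, 53 without Mst1/2-KO array 1 and 39 without Mst1/2-KO array 2. Without WT array 1 or Mst1/2-KO array 3 it was 169 or 153. All 188 genes kept their sign in each of these fits, and 33 were called in each. Those 33 include Stk4, H2-M2, Mreg, Asprv1, Cd4, Ccr7, Ccl5, Anxa3, Cd63, Stap2, Grpr, Gbp4 and Pfkfb3 among the falls and Plcb4, Pigr and Anxa1 among the rises.

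Stk4, the target gene that could be measured, fell in every Mst1/2-KO array. Its signal was 8.44, 8.48, 8.53 and 8.58 in the WT arrays and 7.43, 7.32 and 7.5 in the Mst1/2-KO arrays. The groups were far apart, by -1.09 ± 0.09 (SE, adjusted p = 0.00154), and a remaining signal well above the array medians stayed in the Mst1/2-KO arrays. Whether the probes fall inside the deleted stretch cannot be told from the files. Stk3 had no probe set of its own and was not analysed here.

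No other Hippo pathway gene was called. Of 27 measured components Stk4 was called and 26 were not, with a median of 0.00 over the list. Over all genes 0.848% were called, so lists of this size would hold few calls or none at that share. The partner proteins Sav1 (0.07 ± 0.09) and Mob1b (0.04 ± 0.11), the kinase Lats1 (0.14 ± 0.08) and the coactivator Yap1 (-0.19 ± 0.12) had adjusted p-values of 0.828, 0.918, 0.527 and 0.569. Yap1 lay at 4.82 to 5.35 and Wwtr1, which encodes the coactivator TAZ, at 3.96 to 4.57 over the 7 arrays, near the array medians. Of 24 YAP/TAZ target genes 0 were called by limma (median -0.04), and 5 had an unadjusted p under 0.05, as did 2928 (13.2%) of all genes. The target genes Ccn1 and Ccn2 differed by -0.26 ± 0.14 and -0.20 ± 0.10, with adjusted p of 0.481 and 0.45. The target closest to the threshold was Crim1 (0.62 ± 0.12, adjusted p = 0.0516).

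The promoters of the 3 largest rises and of the 3 largest falls with an entry in the RefSeq table (build GRCm38.p6) follow, clone-named genes being skipped. These genes were taken from called genes whose arrays do not overlap between genotypes. Larger changes than some of them were those of the clone-named gene 4931431B13Rik, skipped here, and of Cd4, which is named only. Each sequence runs 5′ to 3′ on the gene's strand, from 250 bases before the start to 50 bases after it, and capitals mark matches to motifs on either strand: NF-kB (GGGA and TTCC with any 2 bases between), TEAD (GGAATG) or the interferon-stimulated response element, ISRE (GAAA and GAAA with any 2 bases between).
Plcb4 (chr2:135659297-135659596, plus strand): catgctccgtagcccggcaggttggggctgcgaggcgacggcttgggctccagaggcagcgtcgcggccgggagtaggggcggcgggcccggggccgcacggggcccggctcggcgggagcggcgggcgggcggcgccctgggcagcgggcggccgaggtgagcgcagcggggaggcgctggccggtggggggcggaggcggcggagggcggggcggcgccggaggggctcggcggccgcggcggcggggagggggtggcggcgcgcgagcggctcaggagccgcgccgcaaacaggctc
Pigr (chr1:130826434-130826733, plus strand): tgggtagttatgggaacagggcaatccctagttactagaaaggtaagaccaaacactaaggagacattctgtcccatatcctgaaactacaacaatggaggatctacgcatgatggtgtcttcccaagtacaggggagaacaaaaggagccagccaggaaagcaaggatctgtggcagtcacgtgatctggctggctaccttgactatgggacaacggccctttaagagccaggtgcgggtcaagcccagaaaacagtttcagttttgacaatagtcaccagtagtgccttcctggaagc
Alox5 (chr6:116461129-116461428, minus strand): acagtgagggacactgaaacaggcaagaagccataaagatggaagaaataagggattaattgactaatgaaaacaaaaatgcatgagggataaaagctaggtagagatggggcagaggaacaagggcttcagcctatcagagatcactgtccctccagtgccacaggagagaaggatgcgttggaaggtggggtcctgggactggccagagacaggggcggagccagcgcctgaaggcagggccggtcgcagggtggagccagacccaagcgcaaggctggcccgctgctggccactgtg
H2-M2 (chr17:37483505-37483804, minus strand): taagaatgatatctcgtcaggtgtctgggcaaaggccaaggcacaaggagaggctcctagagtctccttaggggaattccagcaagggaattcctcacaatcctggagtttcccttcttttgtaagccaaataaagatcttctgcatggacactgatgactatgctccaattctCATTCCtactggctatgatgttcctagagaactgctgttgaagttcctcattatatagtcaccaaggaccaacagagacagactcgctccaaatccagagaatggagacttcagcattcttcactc
Mreg (chr1:72212265-72212564, minus strand): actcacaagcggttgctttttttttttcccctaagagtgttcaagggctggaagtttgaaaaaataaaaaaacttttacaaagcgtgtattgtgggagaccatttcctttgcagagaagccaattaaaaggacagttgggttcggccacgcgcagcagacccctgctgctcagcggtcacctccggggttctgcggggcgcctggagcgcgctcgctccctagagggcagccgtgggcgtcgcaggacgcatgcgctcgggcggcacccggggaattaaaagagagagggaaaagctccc
Asprv1 (chr6:86627924-86628223, plus strand): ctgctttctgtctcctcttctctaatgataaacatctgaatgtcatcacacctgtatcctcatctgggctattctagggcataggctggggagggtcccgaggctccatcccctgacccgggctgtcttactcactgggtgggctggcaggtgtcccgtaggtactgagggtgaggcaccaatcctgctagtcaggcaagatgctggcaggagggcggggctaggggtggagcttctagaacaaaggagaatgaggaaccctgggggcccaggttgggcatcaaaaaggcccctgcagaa
These 6 promoters differ in base composition: Plcb4 has a GC content of 84.0% with 50 CpG dinucleotides, and H2-M2 has 45.3% with 2, where the median promoter of the genes tested has 56.3% and 13. The only match to the marked motifs is 1 TEAD motif in the H2-M2 promoter, in the reverse direction, 76 bases before the start. A looser NF-kB form, defined below, is not marked. The H2-M2 promoter holds it, for example as GGGGAATTCC, with G where the marked NF-kB letters have A. The looser form is in 56.7% of all promoters. No match says only that the letters of the marked motifs are not in this window.

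Of the 188 called genes 146 have a promoter in the table, and 8 of these promoters hold an NF-kB or an ISRE match. All 8 belong to genes that fell. The NF-kB letters are in 3.33% of the 90 promoters of genes that fell, in 0 of the 56 of genes that rose and in 1.44% of all 16990. The ISRE letters are in 6.67%, 0 and 3.35% of them, and the TEAD letters in 10%, 8.93% and 13.5%. The looser NF-kB form, GGG and CC with any 5 bases between, which includes the stricter motif, is too common to set genes apart: it is in 64.4%, 78.6% and 56.7%. A match is a description of letters, not of a bound site. The matches of 5 of these genes, chosen after the search, are shown with 10 bases on either side and the match in capitals. Apol7c has a pair of overlapping ISRE matches, each on its own line with only that match in capitals.
Gbp5, NF-kB (chr3:142496847-142496876, plus strand): ggagaggaaaGGAAATTCCCagggctggcc
Gbp5, ISRE (chr3:142496759-142496788, plus strand): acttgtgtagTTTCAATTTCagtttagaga
Stap2, NF-kB (chr17:56005592-56005621, minus strand): actgagttgaGGAAACTCCCcaggaacctg
Apol7c, ISRE (chr15:77533351-77533380, minus strand): gaaatggggcTTTCTCTTTCcttttctgct
Apol7c, ISRE (chr15:77533345-77533374, minus strand): gggctttctcTTTCCTTTTCtgctttgggt
Ifit1bl1, ISRE (chr19:34602053-34602082, minus strand): actctgtaggTTTCATTTTCtgtaggttgg
Plxnc1, ISRE (chr10:94944944-94944973, minus strand): ttcacaatggGAAAGTGAAAcgcacaagcg
Gbp5 holds both motifs, the NF-kB match 77 and the ISRE match 165 bases before its start, and it fell by 0.98 ± 0.16 on the log2 scale. The Stap2 match lies 5 bases before the start listed first in the table and the Ifit1bl1 match 104 bases before the start.

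Among the largest falls, H2-M2 had signals of 9.46, 9.22, 9.38 and 9.66 in WT arrays and 7.30, 6.46 and 7.24 in Mst1/2-KO arrays. The lowest WT array was nearly 2 log2 units above the highest Mst1/2-KO array, and the difference was -2.43 ± 0.20 (adjusted p = 0.00154). Mreg lay at 9.27, 9.09, 9.78 and 9.38 against 7.19, 7.17 and 7.64, a difference of -2.04 ± 0.18 (adjusted p = 0.00154). Asprv1, an aspartic protease best known from skin, lay at 6.81, 6.85, 7.0 and 7.20 against 4.95, 5.18 and 5.05, a difference of -1.90 ± 0.12 (adjusted p = 0.000612). It had the smallest p-value of all genes, and its Mst1/2-KO values lie little above the array medians. Anxa3, a calcium-dependent membrane-binding annexin, went from 8.24, 7.49, 7.91 and 7.79 to 6.39, 5.91 and 6.32 (-1.65 ± 0.18, adjusted p = 0.00508). The tetraspanin Cd63, found on late endosomes, went from 8.91, 8.71, 9.29 and 9.0 to 7.66, 7.62 and 7.55 (-1.37 ± 0.13, adjusted p = 0.00301). Other falls rested on fewer arrays or lower signals. Zfp872, a zinc finger gene, fell by 1.55 ± 0.22 (adjusted p = 0.0133, called whichever array was left out) from 5.02 to 5.64 to 3.17 to 4.04. Apol7c, of the apolipoprotein L family, fell by 1.50 ± 0.23 (0.0207; called again only without WT array 1 or Mst1/2-KO array 3, otherwise up to 0.0889), and the adhesion receptor Adgrg6 differed by -1.59 ± 0.30 (0.049; called again only without WT array 3, otherwise up to 0.199). H2-M2, Mreg, Asprv1, Anxa3 and Cd63 were each called whichever array was left out. Their 4 WT arrays lie above all 3 Mst1/2-KO arrays, and 13.8% of all genes show no overlap in either direction. The largest falls were named only among genes without overlap, so the lack of overlap adds nothing to their calls.

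**Figure D2:**
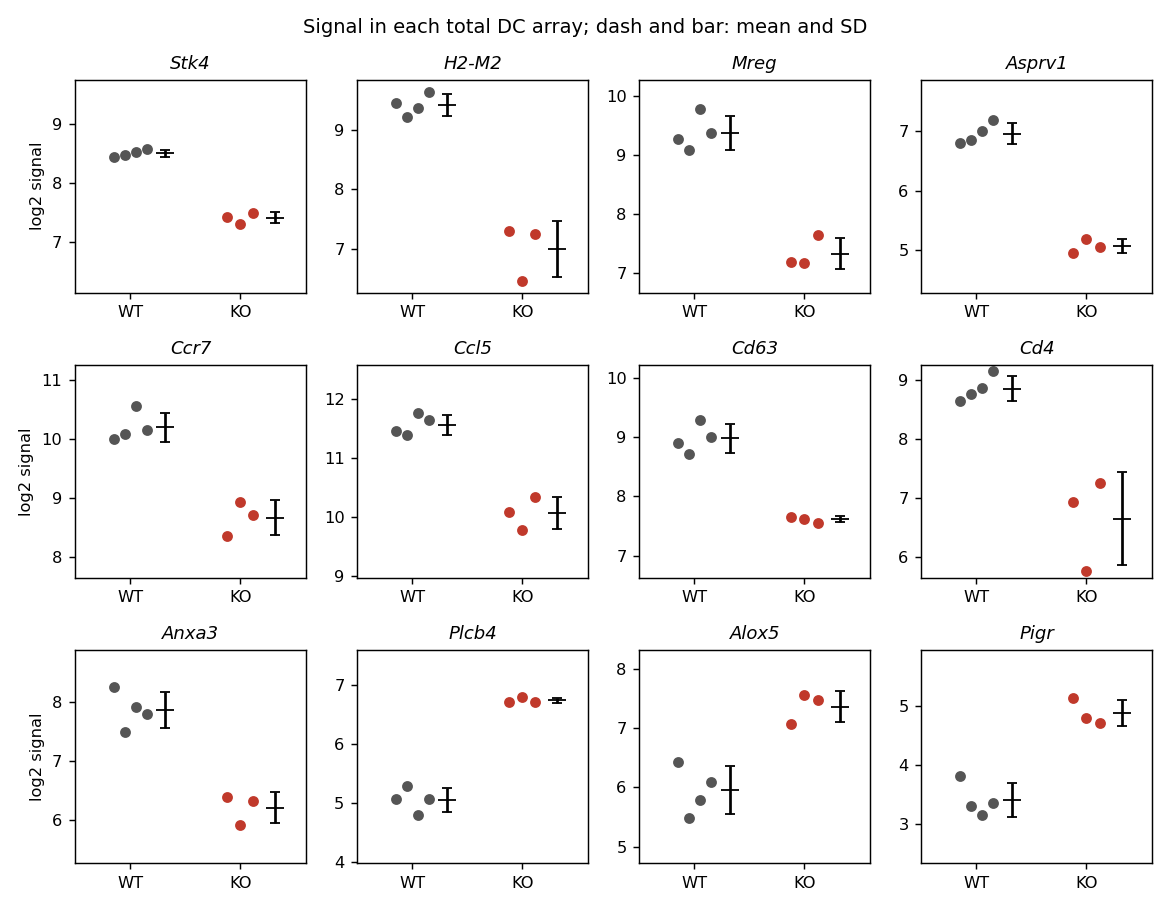
Log2 signal of 12 genes in each of the 4 WT (grey) and 3 Mst1/2-KO (red) arrays of total DCs, with the mean and SD beside each group; each panel spans the same range of log2 signal around its own centre. No panel has overlapping groups, which was required of the genes named as the largest rises and falls. Stk4 falls from 8.44 to 8.58 to 7.32 to 7.5, and Plcb4 rises from 4.79 to 5.29 to 6.71 to 6.79.

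Among the genes of DC maturation and co-stimulation a part fell and none rose. Of 27 measured members 9 fell and 0 rose, where 0.532% of all genes fell, 25 lay below 0, and the median was -0.56 against 0.00 over all genes. This list and the others were chosen with earlier results of these data known, so their counts and medians are descriptions and not independent tests. Ccr7, the receptor that leads DCs toward lymph nodes and the T cell zone, had signals of 10.002, 10.08, 10.55 and 10.16 in WT arrays and 8.35, 8.93 and 8.71 in Mst1/2-KO arrays. It fell by 1.53 ± 0.17 on the log2 scale (adjusted p = 0.00508). Ccl5, a chemokine that attracts T cells, lay at 11.46, 11.40, 11.77 and 11.64 against 10.09, 9.79 and 10.34 and fell by 1.49 ± 0.14 (adjusted p = 0.00301). Both calls held whichever array was left out.

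Other members of that list fell with less stable calls. Il12b, the shared chain of IL-12 and IL-23, lay at 8.29, 9.01, 9.03 and 8.57 against 7.24, 7.06 and 7.64 (-1.41 ± 0.20, adjusted p = 0.0159), and its call was lost without Mst1/2-KO array 1 or 2 (adjusted p up to 0.0911). Socs2, a suppressor of cytokine signalling, fell by 1.66 ± 0.29 (adjusted p = 0.0367), was called only without WT array 2 or Mst1/2-KO array 1 among these fits (adjusted p up to 0.162), and another probe set of it showed -0.54 ± 0.13. The remaining 5 members called are given after their values were seen. The PD-1 ligands Cd274 (-1.08 ± 0.13, adjusted p = 0.0086) and Pdcd1lg2 (-1.13 ± 0.18, adjusted p = 0.0208) restrain T cells, and both calls were lost without Mst1/2-KO array 1 or 2 (adjusted p up to 0.0561 and 0.127). Fscn1, the actin bundler of mature DC dendrites, fell by 1.31 ± 0.21 (adjusted p = 0.0224), a call lost without WT array 4 or any single Mst1/2-KO array (up to 0.127). Il15ra (-0.72 ± 0.12, adjusted p = 0.0293) and Samsn1 (-0.56 ± 0.10, adjusted p = 0.0367) were called only with all 7 arrays; leaving out any 1 gave adjusted p-values of 0.0523 to 0.113 and 0.0665 to 0.156.

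The best known co-stimulatory receptors and ligands were not called. Cd40 differed by -0.65 ± 0.14 (adjusted p = 0.0731), Cd80 by -0.49 ± 0.18 (0.281), Cd86 by -0.18 ± 0.11 (0.558) and Cd83 by -0.10 ± 0.13 (0.824). The chemokine Ccl22 differed by -1.04 ± 0.22 (0.0628). Among 23 chemokines and chemokine receptors Ccr7, Ccl5 and Ccl3 fell and 0 rose, with a median of -0.13. Ccl3 fell by 0.98 ± 0.17 (adjusted p = 0.035) and was called again only in the fit without Mst1/2-KO array 3; leaving out any other array gave up to 0.152. Of 19 cytokines, Il12b alone was called (median -0.16).

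NF-kB genes leaned down with few calls. In the non-canonical pathway, which RelB and p52 complete downstream of CD40 and the lymphotoxin receptor, 8 of 9 measured genes lay below 0 (median -0.35) and 1 was called. This was Birc2, the ubiquitin ligase cIAP1, at 9.08, 8.96, 9.05 and 9.0 against 8.39, 8.19 and 8.28 (-0.74 ± 0.09, adjusted p = 0.0086), whose call was lost without Mst1/2-KO array 2 (0.0561). Relb itself lay at 7.66, 7.91, 8.16 and 8.23 against 7.19, 7.13 and 7.40, with a difference of -0.75 ± 0.15 and an adjusted p of 0.0516, just past the threshold. Nfkb2 differed by -0.16 ± 0.15 (0.731). Of 17 canonical NF-kB genes 15 lay below 0 (median -0.22) and 0 were called by limma. For 7 of them, Tnf at -0.81 ± 0.26 (0.208) included, the unadjusted p was under 0.05, as it was for 13.2% of all genes.

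Interferon-stimulated genes showed the same lean: 25 of 30 lay below 0, the median was -0.33 and 1 was called. Gbp5, an interferon-induced GTPase, lay at 6.08, 5.71, 6.05 and 5.72 against 5.24, 4.70 and 4.80 (-0.98 ± 0.16, adjusted p = 0.0221), and its call was lost without WT array 1 or 3 or Mst1/2-KO array 2 or 3 (up to 0.127). Ifih1, the RNA sensor MDA5, differed by -0.63 ± 0.13 (adjusted p = 0.0555). Interferon-induced genes outside the list were among the largest falls. They were picked from those falls in these same data, so they add nothing to the lean of the list. Gbp4, of the same GTPase family, lay at 6.82, 6.42, 6.78 and 6.39 against 5.27, 4.18 and 5.21 (-1.71 ± 0.25, adjusted p = 0.0165). Ifit1bl1, of the IFIT family, lay at 7.13, 7.09, 7.27 and 7.48 against 5.94, 5.31 and 5.71 (-1.59 ± 0.16, adjusted p = 0.00301). The calls of Gbp4 and Ifit1bl1 held whichever array was left out.

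Of 20 Toll-like receptors and adaptors 1 was called. Tlr7, the sensor of single-stranded RNA, lay at 8.34, 8.17, 8.80 and 8.68 against 6.84, 6.15 and 7.43 (-1.69 ± 0.27, adjusted p = 0.0219), and its call was lost without WT array 3 or 4 or Mst1/2-KO array 1 or 2 (up to 0.104). Of 21 genes of MHC class I presentation H2-M2 alone was called, and the list's median was 0.04. Of 15 genes of MHC class II presentation H2-Ea was called (-0.91 ± 0.13, adjusted p = 0.0164; lost without any single Mst1/2-KO array, up to 0.0902). The class II beta chain gene H2-Eb2, outside that list, fell by 1.62 ± 0.21 (adjusted p = 0.0108; 0.0632 without Mst1/2-KO array 1). Genes of the same family can share probes, so the split of signal between class II genes is uncertain.

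The rises were fewer and smaller. Plcb4, a phospholipase C that acts downstream of G protein-coupled receptors, had signals of 5.08, 5.29, 4.79 and 5.07 in WT arrays and 6.72, 6.79 and 6.71 in Mst1/2-KO arrays. The Mst1/2-KO arrays lay close together and all above WT, and the difference was 1.68 ± 0.12 (adjusted p = 0.00105). Pigr, the receptor that carries polymeric immunoglobulin across epithelia, lay at 3.82, 3.31, 3.17 and 3.36 against 5.13, 4.80 and 4.72 (1.47 ± 0.17, adjusted p = 0.00552), so that its WT values are below the array medians. Anxa1, an annexin that damps inflammation, was chosen after its values were seen and rose from 8.67 to 8.90 in WT arrays to 9.53 to 9.61 (0.81 ± 0.09, adjusted p = 0.00605). The calls of Plcb4, Pigr and Anxa1 held whichever array was left out. The largest rise, of the clone-named gene 4931431B13Rik, was 2.50 ± 0.22 (adjusted p = 0.00154), also in each of these fits.

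Alox5, the 5-lipoxygenase that opens leukotriene synthesis, lay at 6.44, 5.49, 5.78 and 6.10 against 7.07, 7.56 and 7.48 (1.42 ± 0.21, adjusted p = 0.0176). Another probe set of Alox5 showed 1.82 ± 0.20, and the call was lost without Mst1/2-KO array 2 or 3 (up to 0.111). Ptgs2, the inducible cyclooxygenase of prostaglandin synthesis, went the other way, from 10.47, 10.32, 10.38 and 10.49 to 9.40, 9.19 and 9.72 (-0.98 ± 0.13, adjusted p = 0.00993; lost without Mst1/2-KO array 1 or 2, up to 0.0617). They were the genes called among 17 enzymes and receptors of these pathways, whose median was -0.07. Hpgds, a prostaglandin D synthase, differed by -1.03 ± 0.20 (adjusted p = 0.0547), and the Alox5 partner Alox5ap by 0.16 ± 0.10 (0.567).

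Other named rises were less stable to single arrays. The integrin chain Itgad (1.41 ± 0.22, adjusted p = 0.0207) was called only without WT array 1 or 3 among the fits that left out 1 array (up to 0.11). The protease inhibitor Serpinb8 (1.23 ± 0.22, 0.035) was called only without WT array 1 or Mst1/2-KO array 3 (up to 0.162), and the tubulin-binding Tppp3 (1.16 ± 0.21, 0.0382) only without Mst1/2-KO array 1 (up to 0.135). Met, the receptor of hepatocyte growth factor (1.08 ± 0.17, 0.0208), lost its call without WT array 2 or 4 or Mst1/2-KO array 1 or 2 (up to 0.127). The lipid acyltransferase Mboat1 (0.92 ± 0.11, 0.0086), the cyclin-like Ccnyl1 (0.89 ± 0.12, 0.013) and Ocstamp, a cell fusion protein of osteoclasts (0.86 ± 0.11, 0.00993), lost theirs only without Mst1/2-KO array 2 (0.0562, 0.075 and 0.0629). Angpt1, a vessel growth factor (0.87 ± 0.15, 0.0338), was called only with all 7 arrays (up to 0.102), and another probe set of it showed 0.27 ± 0.15. Dhrs9 (0.88 ± 0.13), Dpysl2 (0.88 ± 0.12) and Qpct (0.87 ± 0.15) rose too; Dhrs9 lost its call without any single Mst1/2-KO array (up to 0.108), Dpysl2 without Mst1/2-KO array 1 or 2 (up to 0.0858), and Qpct was called again only without WT array 2 (otherwise up to 0.171).

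A few genes of CD8+ DC identity rose in Mst1/2-KO total DCs and a few of CD8- DC identity fell, while the medians of these lists lay on opposite sides of 0. Of 23 measured CD8+ DC genes 21 lay above 0, 3 rose and 0 fell (median 0.43). Their mean signal was 8.48 to 8.97 over the WT arrays and 9.07 to 9.16 over the Mst1/2-KO arrays, with no overlap. Of 28 measured CD8- DC genes 20 lay below 0, 3 fell and 0 rose (median -0.33), and their mean was 7.76 to 7.99 against 7.35 to 7.67. Most members of both lists were not called, and over all genes 0.316% rose and 0.532% fell. The unadjusted limma p was under 0.05 for 18 CD8+ and 19 CD8- DC genes of these lists, and for 13.2% of all genes. Arrays did not overlap between genotypes for 17 CD8+ DC genes that were higher and 0 that were lower. Over all 22180 genes this was so for 1833 and 1218.

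Among the CD8+ DC genes the septin Septin3 lay at 7.05, 7.48, 6.71 and 6.82 against 8.22, 8.14 and 8.10 (1.14 ± 0.17, adjusted p = 0.0171; lost without WT array 4 or Mst1/2-KO array 1 or 2, up to 0.0976). The small GTPase Rab7b rose by 0.81 ± 0.13 (adjusted p = 0.0271; lost without WT array 4 or any single Mst1/2-KO array, up to 0.126), and the lipid phosphatase Plpp1 by 0.73 ± 0.12 (0.0271; called again only without WT array 2, otherwise up to 0.127). The genes that define the subset by surface or fate were not called: Xcr1, the receptor for XCL1, differed by 0.53 ± 0.16 (adjusted p = 0.172), Cd8a by 0.27 ± 0.12 (0.381), Irf8 by 0.29 ± 0.12 (0.336) and Batf3 by 0.15 ± 0.14 (0.721).

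Among the CD8- DC genes Cd4 lay at 8.64, 8.76, 8.87 and 9.14 in WT arrays and 6.93, 5.76 and 7.25 in Mst1/2-KO arrays. The Mst1/2-KO arrays were all far below WT but differed among themselves, array 2 being the lowest, and the difference was -2.20 ± 0.30 (adjusted p = 0.0123), called whichever array was left out. Besides Tlr7, the third gene called was the C-type lectin Clec4a1 (-0.58 ± 0.10, adjusted p = 0.0336; called again only without WT array 2, otherwise up to 0.162). Esam, an adhesion molecule of the Notch-dependent CD4 DCs, lay at 5.24, 5.83, 5.53 and 6.06 against 4.87, 4.60 and 4.79 and was not called (-0.91 ± 0.18, adjusted p = 0.0529). The transcription factor Irf4 (-0.36 ± 0.18, 0.438) and Sirpa, the CD172a receptor (-0.52 ± 0.14, 0.133), were not called either. The list was not of one direction: 8 members lay above 0, and none of these was called. Arrays did not overlap between genotypes for 4 members that were higher and 12 that were lower. Over all 22180 genes this was so for 1833 that were higher and 1218 that were lower. The 5 highest, given after their values were seen, were the lectins Clec10a (0.56 ± 0.24, adjusted p = 0.356), Mgl2 (0.52 ± 0.15, 0.171) and Clec12a (0.34 ± 0.10, 0.187), the chemokine receptor Cx3cr1 (0.49 ± 0.14, 0.173) and the receptor Notch2 (0.28 ± 0.10, 0.276). In the Notch pathway, 1 of 23 genes was called: Jag1, a Notch ligand, fell from 5.82, 5.94, 5.53 and 6.50 to 4.45, 4.29 and 4.68 (-1.48 ± 0.20, adjusted p = 0.013; lost without Mst1/2-KO array 1 or 2, up to 0.0822).

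The same pattern held for genes taken from other arrays. The WT sorted arrays give 451 genes at least 2-fold higher in CD8+ than in CD8- DCs and 624 at least 2-fold higher in CD8- DCs, all past the threshold there. In total DCs 31 of the CD8+ genes rose and 3 fell, 88.5% of them lay above 0, and their median was 0.35. Of the CD8- genes 5 rose and 68 fell, 19.1% lay above 0, and the median was -0.34. The 21105 other genes had 34 rises and 47 falls, with 50.9% above 0. Of the 70 rises 31 were CD8+ genes, 5 CD8- genes and 34 neither, and of the 118 falls 68 were CD8- genes, 3 CD8+ genes and 47 neither. For genes at least 4-fold apart the medians were 0.44 (125 genes) and -0.56 (202 genes).

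The shift of these genes was seen in each Mst1/2-KO array. Against the mean of the 4 WT arrays, the median over the CD8+ genes was 0.42, 0.32 and 0.31 in the 3 Mst1/2-KO arrays. The WT arrays, each against the mean of the other 3, gave 0.05, 0.19, -0.15 and -0.11. For the CD8- genes the Mst1/2-KO arrays gave -0.32, -0.52 and -0.20, and the WT arrays -0.10, -0.14, 0.08 and 0.15. The third Mst1/2-KO array thus lies closest to WT for the CD8- genes, and the WT arrays themselves differ in the same direction by up to 0.19. The number of CD8+ genes called, 34, fell to 20 without WT array 3, 10 without WT array 4, 4, 2 and 17 without Mst1/2-KO arrays 1, 2 and 3. The number of CD8- genes called, 73, fell to 46 without WT array 2, 34 without WT array 4, and 19 and 15 without Mst1/2-KO arrays 1 and 2. The medians stayed between 0.31 and 0.40 and between -0.42 and -0.28.

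**Figure D3:**
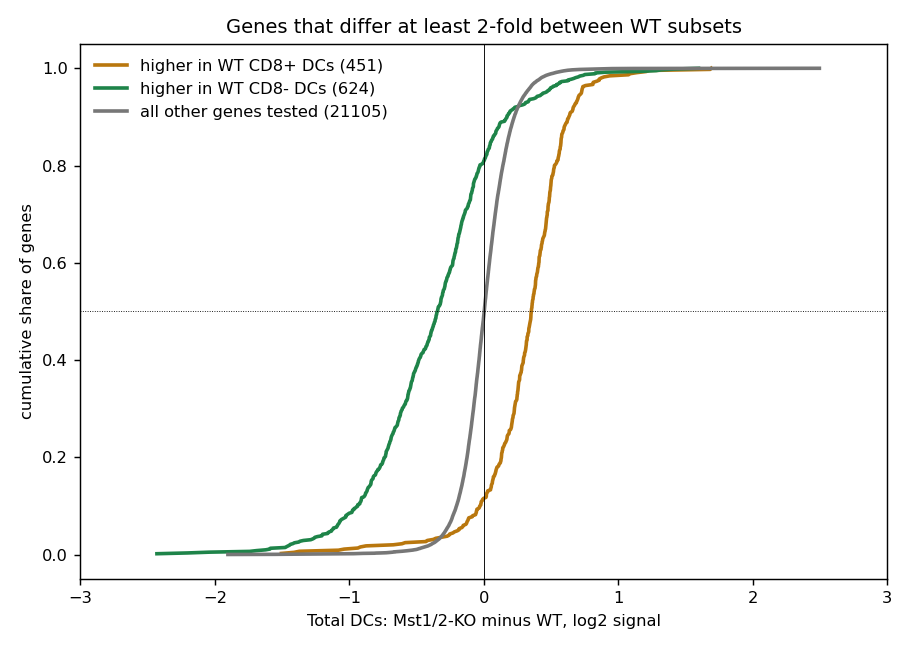
Cumulative share of genes (y axis, 0 to 1) against the log2 difference between Mst1/2-KO and WT total DCs (x axis), for genes at least 2-fold higher in sorted WT CD8+ DCs (451), in sorted WT CD8- DCs (624) and for all others (21105). The curves cross the dotted line at their medians, 0.35, -0.34 and 0.00.

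Markers of other cells had 1 call in all, that of Adgre1, where 0.848% of all genes were called. The 13 plasmacytoid DC genes had 0 called by limma (7 at an unadjusted p under 0.05) and a median of -0.43, as far from 0 as that of the CD8+ DC identity genes, with 10 below 0, and their mean signal overlapped (6.66 to 7.55 in WT, 6.34 to 7.31 in Mst1/2-KO arrays). Siglech, their defining lectin, differed by -0.81 ± 0.28 (adjusted p = 0.243). Of 11 T cell, 14 B cell, 12 NK cell, 16 neutrophil and 7 erythroid and platelet markers 0 were called by limma, with 0, 5, 3, 1 and 1 at an unadjusted p under 0.05. Over all genes 13.2% had such an unadjusted p. The 4 sex-linked genes had 0 called and 0 at that unadjusted p. The mean signals of T cell markers were 4.43 to 5.76 in WT and 4.74 to 5.08 in Mst1/2-KO arrays, and those of B cell markers 5.48 to 5.73 and 5.16 to 5.49. The T cell receptor chain Cd3e ran from 3.40 to 6.51 within the WT arrays and from 4.59 to 5.42 in the Mst1/2-KO arrays. The means of NK cell markers (4.98 to 5.54 and 5.16 to 5.42), of neutrophil markers (4.94 to 5.14 and 4.87 to 5.34) and of erythroid and platelet markers (4.29 to 4.70 and 4.1 to 4.31) overlapped too. Of 22 macrophage and monocyte markers Adgre1, which encodes F4/80 and is also expressed by CD8- DCs, fell (-1.47 ± 0.22, adjusted p = 0.0192; lost without WT array 4 or Mst1/2-KO array 1 or 2, up to 0.103), with list means of 6.6 to 7.10 and 6.61 to 6.86. The part of any of these cells in the changes was not tested.

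Lists of growth and metabolism leaned up without a call. Of 34 proliferation genes 32 lay above 0 with a median of 0.44, and 29 had an unadjusted p under 0.05 but 0 passed the adjusted threshold of limma, for example the replication helicase Mcm2 (0.49 ± 0.11, adjusted p = 0.0718). The exception with the largest difference was Ccnd2, a D-type cyclin, at -0.77 ± 0.16 (0.0693). Ribosome biogenesis had 20 of 21 above 0 (median 0.27; Dkc1, the pseudouridine synthase of the nucleolus, at 0.55 ± 0.10, adjusted p = 0.0515). Oxidative phosphorylation had 59 of 67 above 0 with a median of 0.14, and the TCA cycle 17 of 20 with a median of 0.14. Uqcrc1, of respiratory complex III, differed by 0.50 ± 0.13 (0.123) and the TCA enzyme Fh1 by 0.49 ± 0.11 (0.0802). Fatty acid synthesis (median 0.26, Elovl6 at 0.60 ± 0.12, 0.0578) and cholesterol synthesis (median 0.15, Fdps at 0.53 ± 0.12, 0.0794) had 0 called as well. The unadjusted p was under 0.05 for 11 of 21 ribosome biogenesis, 10 of 67 oxidative phosphorylation and 5 of 20 TCA cycle genes. The same held for 4 of 12 fatty acid and 3 of 17 cholesterol genes. Over all genes the share was 13.2%, and oxidative phosphorylation and cholesterol synthesis lay near it.

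Single genes of metabolism fell. Pfkfb3, which makes the strongest activator of phosphofructokinase and so drives glycolysis, lay at 8.13, 8.11, 8.24 and 8.08 against 7.24, 7.35 and 7.41 (-0.81 ± 0.09, adjusted p = 0.00605). Its call held whichever array was left out, while the other 19 glycolysis and glucose transport genes were not called. Of 22 glutathione and Nrf2 antioxidant genes the cystine transporter Slc7a11 (-1.13 ± 0.20, 0.0364; -1.0 ± 0.28 at another probe set; called again only without WT array 1, otherwise up to 0.135) and Gclc, the rate-limiting enzyme of glutathione synthesis (-0.88 ± 0.14, 0.0263; lost without WT array 2 or 4 or any single Mst1/2-KO array, up to 0.127), fell.

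In the other lists at most 1 gene was called, where 0.848% of all genes were. The pro-apoptotic Bid rose among 16 BCL2 family and apoptosis genes (0.61 ± 0.10, adjusted p = 0.0238; called again only without WT array 2, otherwise up to 0.127), Cd63 fell among 27 lysosome genes Socs2 among 23 genes of SOCS and JAK-STAT signalling and Clec4a1 among 25 C-type lectins. By limma 0 genes were called among 38 DC transcription factors, 25 genes of BMP and TGF-beta signalling, 18 of the p38 MAPK pathway, 21 integrin and migration genes, 21 of mitochondrial dynamics, 19 of the unfolded protein response and 27 immediate-early and heat-shock genes, whose medians lay between -0.06 and 0.15. Of these 7, 4, 3, 5, 5, 6 and 2 had an unadjusted p under 0.05, in that order, as did 13.2% of all genes. The largest difference among the transcription factors was that of Relb, and among the BMP genes that of the ligand Bmp2 (-1.20 ± 0.26, adjusted p = 0.0718), where WT array 4 (6.35) stood above the other WT arrays (5.18 to 5.33) and the Mst1/2-KO arrays lay at 4.19 to 4.53.

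**Figure D4:**
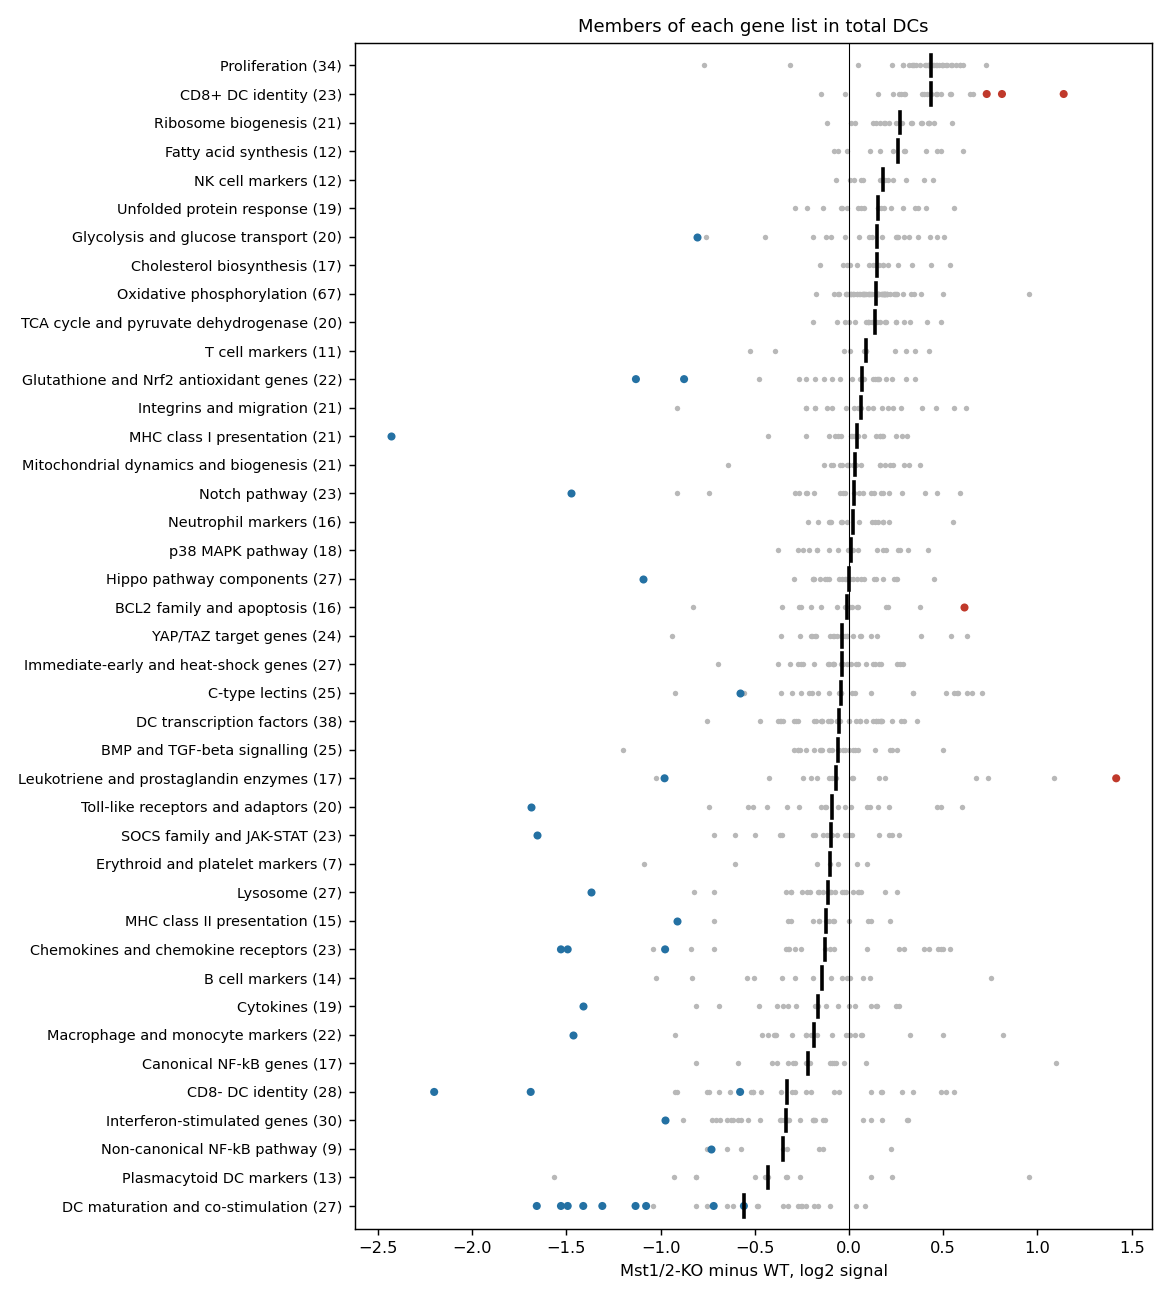
Log2 difference (Mst1/2-KO minus WT total DCs, x axis) of each measured member of 41 gene lists (rows, members in brackets), with called genes in red (higher) or blue (lower), others in grey, and the list median as a black bar. The medians run from -0.56 (DC maturation and co-stimulation, 9 blue points) to 0.44 (proliferation, with 0 called).

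The 188 genes were next looked up in the sorted subsets, whose arrays share no control with the total DCs. In CD8- DCs, where 6.68% of all genes were called (3.9% higher and 2.79% lower), 136 of the 188 were called in the same direction and 0 in the opposite one, and 183 had the same sign. These are 72.3% of the calls in total DCs and 9.18% of the 1482 calls in CD8- DCs. In CD8+ DCs, where 0.888% of all genes were called (0.234% higher and 0.654% lower), 49 were called in the same direction, 1 in the opposite one (Clec4a1), and 165 had the same sign. These are 26.1% of the calls in total DCs and 24.9% of the 197 calls in CD8+ DCs. Of the 70 rises 5 (7.14%) were called higher in CD8+ DCs, where few genes of any kind were, and 58 had the same sign. Of the 118 falls 44 (37.3%) were called lower there, and 107 had the same sign.

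Leaving out arrays of total DCs lowered these counts with the number of calls. For CD8- DCs, 86 genes remained called the same way without WT array 2, 66 without WT array 4, and 44 and 31 without Mst1/2-KO arrays 1 and 2. For CD8+ DCs the counts were 28 without WT array 4 and 22 and 18 without Mst1/2-KO arrays 1 and 2. Across all 22180 genes the correlation of the total DC changes was 0.58 with those in CD8- DCs and 0.399 with those in CD8+ DCs, given as a description since genes are not independent replicates.

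In both subsets 37 of the 188 genes were called the same way, 33 of them falls. They include Stk4 (-0.77 in CD8- and -0.86 in CD8+ DCs), H2-M2 (-1.77 and -2.79), Mreg (-1.96 and -2.73), Asprv1 (-1.73 and -2.22), Ccr7 (-1.86 and -2.34), Ccl5 (-0.99 and -2.19), Anxa3 (-1.05 and -2.73) and Gbp4 (-0.98 and -1.18). Plcb4 rose in both, by 2.44 in CD8- DCs and 0.75 in CD8+ DCs. Another 99 were called the same way in CD8- DCs only by this threshold, such as Cd4 (-2.03, against -0.76 in CD8+ DCs with adjusted p = 0.109) and Alox5 (2.41, against -0.13 with 0.885). Called in CD8+ DCs and not in CD8- DCs were 13, among them Il12b (-1.81, against -0.42 with adjusted p = 0.352) and Cd63 (-2.23, against -0.52 with 0.104). The remaining 39 were called in neither, among them Pigr, Ifit1bl1, Ptgs2, Ccl3, H2-Ea, Plpp1 and Bid. These classes come from thresholds and do not test a difference between the subsets.

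**Figure D5:**
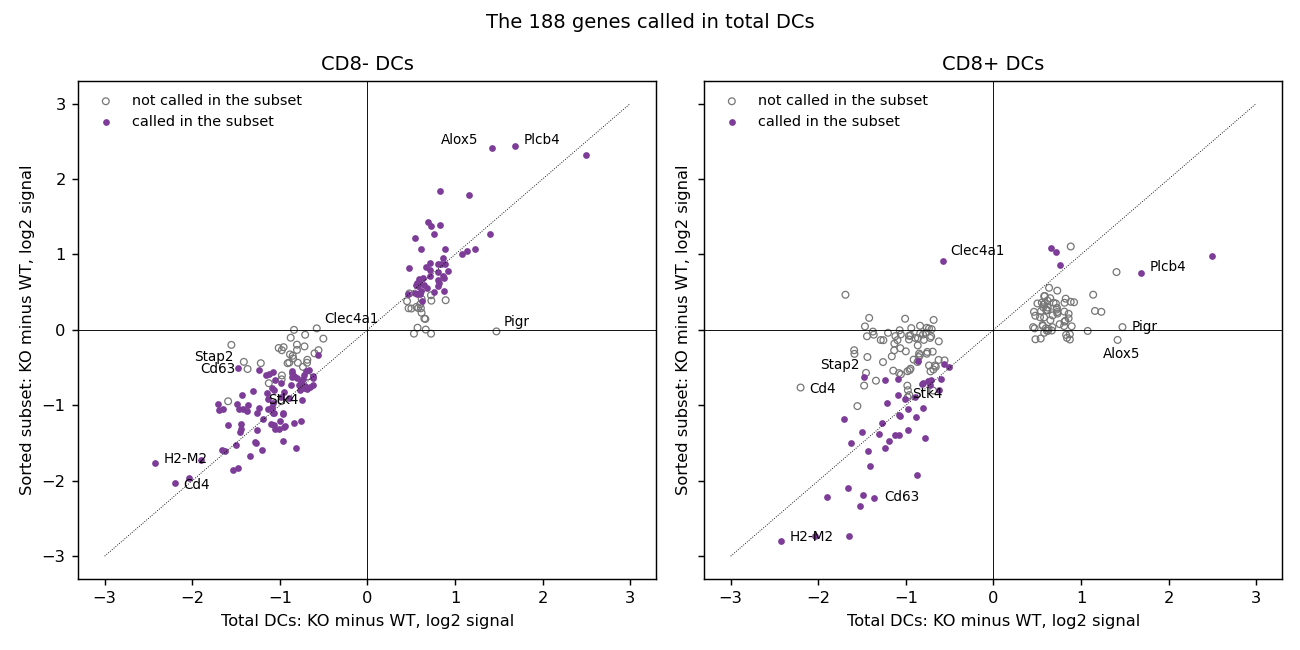
Log2 difference between Mst1/2-KO and WT in sorted CD8- DCs (left) and CD8+ DCs (right) on the y axis against that in total DCs on the x axis, for the 188 genes called in total DCs; filled points were called in the subset and the dotted line marks equal changes. In CD8- DCs 183 of 188 lie in the quadrants of equal sign, in CD8+ DCs 165, with 58 of the 70 rises among them. Pigr lies near 0 in both subsets.

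The maturation genes had low medians in both sorted subsets, -0.41 in CD8- DCs (1 rose, 15 fell) and -0.55 in CD8+ DCs (0 rose, 13 fell). Of the 34 proliferation genes, 24 rose and 0 fell in CD8- DCs (median 0.55), and 5 rose and 0 fell in CD8+ DCs (median 0.38). Lists of subset identity had unlike medians. The median of CD8+ DC identity genes was 0.66 in CD8- DCs (11 rose, 2 fell) and 0.04 in CD8+ DCs (0 called), against 0.43 in total DCs. The CD8- DC identity genes had medians of -0.09 in CD8- DCs (4 rose, 11 fell) and 0.02 in CD8+ DCs (3 rose, 2 fell), against -0.33 in total DCs. The plasmacytoid DC genes had a median of 0.53 in CD8- DCs, where 6 of 13 rose, against -0.43 in total DCs, where 0 were called.

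The difference between the effects was tested over the 23 arrays. Between total and CD8- DCs 13 genes differed (0.0586%, limma, adjusted p under 0.05; 1380 at an unadjusted p under 0.05), and 2 of them, Pigr and Stap2, were among the 188. Pigr rose by 1.47 in total DCs and differed by -0.02 in CD8- and 0.04 in CD8+ DCs, a difference of 1.49 ± 0.21 (adjusted p = 0.00264) and 1.44 ± 0.21 (0.0065). Stap2, an adaptor of cytokine receptor signalling, lay at 6.93, 6.63, 6.84 and 6.6 in WT and 5.26, 5.18 and 5.37 in Mst1/2-KO total DC arrays, and its change of -1.48 ± 0.11 was larger than in CD8- DCs (-0.51), a difference of -0.97 ± 0.14 (adjusted p = 0.00462). Cox6a2, a subunit of respiratory complex IV that also marks plasmacytoid DCs, rose by 3.73 in CD8- DCs and differed by 0.95 ± 0.31 in total DCs (not called, 0.204), a difference of -2.78 ± 0.35 (0.000655). Rasgrp3, an activator of Ras, fell by 1.29 in CD8- DCs and differed by -0.11 in total DCs, a difference of 1.17 ± 0.14 (0.000498). These 4 differences from CD8- DCs, and that of Pigr from CD8+ DCs, were called whichever total DC array was left out.

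The other differences from CD8- DCs were less stable. Actn1 (1.06) and Rab30 (0.96) were called only without WT array 2 or 4, with up to 0.118 and 0.101 otherwise. Asap2 (1.04) and Zbtb32 (-0.99) lost the call without Mst1/2-KO array 1 or 3 (up to 0.0552 and 0.0629), and Clec4g (-1.34) without Mst1/2-KO array 1 or 2 (up to 0.101). Anpep (0.76, lost without Mst1/2-KO array 3, 0.0582), Pde1b (0.74, called again only without WT array 2, otherwise up to 0.168) and Pik3cb (0.62, lost without WT array 1 or 3 or Mst1/2-KO array 1 or 3, up to 0.118) complete the genes. Ltb4r1, a leukotriene B4 receptor, rose by 1.63 in CD8- DCs and differed by 0.42 in total DCs, a difference of -1.21 ± 0.22 (adjusted p = 0.0269; lost without WT array 1 or 3 or Mst1/2-KO array 1 or 3, up to 0.118). The number of genes that differed went from 13 to 24 without WT array 2, 8 without WT array 3, 6 without Mst1/2-KO array 1 and 5 without Mst1/2-KO array 3.

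Between total and CD8+ DCs 10 genes differed (0.0451%; 1607 at an unadjusted p under 0.05), 8 of them among the 188. Tlr7 fell by 1.69 in total DCs and differed by 0.47 in CD8+ DCs, a difference of -2.16 ± 0.36 (adjusted p = 0.022; lost without WT array 4 or Mst1/2-KO array 1 or 2, up to 0.0883). Adgre1 (-1.51 ± 0.27, 0.0331) and the bombesin-like peptide receptor Grpr (-1.35 ± 0.25, 0.0331) differed in the same direction, but without WT array 3, WT array 4 or Mst1/2-KO array 1 or 2 neither was called (up to 0.143 and 0.117), nor was Grpr without Mst1/2-KO array 3. Clec4a1 fell in total DCs and rose in CD8+ DCs (-0.58 and 0.92), a difference of -1.50 ± 0.23 (0.008), and Spats2 fell in total DCs (-1.42) and differed by 0.16 in CD8+ DCs (-1.58 ± 0.23, 0.0065). Gclc fell less in total DCs than in CD8+ DCs (-0.88 and -1.92), a difference of 1.04 ± 0.15 (0.0065). The differences of Stap2 (-0.86) and Lrp8 (-0.93) were lost without Mst1/2-KO array 1 or 2 (up to 0.0879 and 0.117), and that of Clec4a3 (-1.09) without WT array 4 or any single Mst1/2-KO array (up to 0.0866). The differences of Clec4a1, Spats2 and Gclc held whichever total DC array was left out. The number of genes went from 10 to 17 and 16 without WT arrays 1 and 2, to 5 and 6 without Mst1/2-KO arrays 1 and 2, and to 19 without Mst1/2-KO array 3.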

How the data were processed

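The deposited values are log2 expression signals that the authors normalized; the submitters' processing notes name RMA and Partek 6.6 with no role or order, and the genome build is not given in the sources used here. Of 41155 probe sets, 23521 have 1 gene symbol in the platform annotation, 1814 have several and 15820 none. Where a gene had several probe sets (1082 genes), the brightest by its mean over the series was kept, which left 22180 genes. Values beyond the fifth decimal were shared by the total DC arrays at 99.5% of probe sets and between 1 total and 1 sorted array at 6.26%. The total DC arrays were therefore taken to carry their own offset per probe set. That the 16 sorted arrays share an offset was assumed and not checked. Levels were compared within a label only, and differences between genotypes across labels. Group means were fitted with limma 3.58.1 (R 4.3.3) on the 7 total DC arrays, the 16 sorted arrays, or all 23 for the differences of effects, with Benjamini-Hochberg adjustment over all genes and a threshold of 0.05. The fit was also run on simulated data with independent noise in each gene, which does not cover shifts shared by the genes of an array. The number of arrays limits the precision.

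Named genes are Stk4, the 15 largest rises and falls among called genes whose arrays do not overlap, up to 4 called members of each of 42 lists (else the 2 of smallest p) and the 5 called genes of largest difference each way; predicted and clone names were skipped, and a few genes were added after their values were seen. The members and lists were chosen with earlier results of these data known. The lists have 981 entries, 895 of them measured. Promoter sequences were matched by symbol to RefSeq (GRCm38.p6), and motif letters were searched on both strands; the stricter NF-kB letters were adopted after the looser form was found in 56.7% of promoters. Alternatives were other normalizations, a filter on low signal, other handling of probe sets, a shared spread, another prior, a replicate block and leaving out each array.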

Additional observations from a re-analysis of the deposited data

Results flagged for a closer look

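In 7 of the 113 named genes tested, 1 WT array stood apart from the other 3 by Dixon's test; chance flags about 1 in 20 groups. Qpct was 5.85 in WT array 2 against 5.24 to 5.28. Zfp872 was 5.64 in WT array 1 against 5.02 to 5.08. WT array 3 held 7.40 for Adgrg6 (others 6.11 to 6.32), 8.58 for Map2k3 (8.22 to 8.26) and 8.77 for Rasgrp3 (9.04 to 9.09). WT array 4 held 6.35 for Bmp2 (5.18 to 5.33) and 9.26 for Ier3 (8.51 to 8.54).

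The effect of the genotype differed between total and CD8- DCs, by a test of the difference, for Pigr (1.49), Rasgrp3 (1.17), Actn1 (1.06), Asap2 (1.04), Rab30 (0.955), Anpep (0.76), Pde1b (0.74), Pik3cb (0.62), Stap2 (-0.97), Zbtb32 (-0.99), Ltb4r1 (-1.21), Clec4g (-1.34) and Cox6a2 (-2.775), as total minus CD8- on the log2 scale. Between total and CD8+ DCs it differed for Pigr (1.44), Gclc (1.04), Stap2 (-0.86), Lrp8 (-0.93), Clec4a3 (-1.09), Grpr (-1.35), Clec4a1 (-1.50), Adgre1 (-1.51), Spats2 (-1.58) and Tlr7 (-2.16).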

How the results depend on the processing

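The 188 calls became 296 (130 higher, 166 lower) over genes above the median gene, 635 (298 and 337) with the spread shared over 23 arrays, 340 (143 and 197) with a trended, robust prior and 29 (6 and 23) over all probe sets; falls numbered 190 after quantile and 201 after cyclic loess normalization. The cause was not tested. Of the 188, 176 stayed called after quantile normalization, 174 after cyclic loess and 186 with the trended prior. Leaving out 1 array gave 39 to 169 calls (6 to 67 higher, 33 to 110 lower), 33 of the 188 being called each time. List members called, 30, became 76 with the shared spread, 56 with the trended prior and 7 to 31 without 1 array. The genes that differed between effects ranged from 5 to 24 for CD8- and 5 to 19 for CD8+ DCs. Calls seen the same way ranged from 31 to 122 in CD8- and 18 to 43 in CD8+ DCs. For genes 4-fold apart between subsets the medians were 0.44 and -0.56 with 13 and 35 called. For the genes 2-fold apart, quantile normalization called 115 CD8- genes, and without 1 array the medians ran from 0.31 to 0.40 and -0.42 to -0.28, with 2 to 33 and 15 to 75 called. The sign turned for Kdm5d without WT array 1 (0.019) and for Asap2 after cyclic loess (-0.0031) and without WT array 3 (-0.0719), neither called in total DCs; without 1 array they ran from -0.1559 to 0.019 and from -0.0719 to 0.1802.

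With the replicate number as a block, 108 genes were called (28 higher, 80 lower), 82 of them among the 188, and the differences rose from 13 to 23 for CD8- and from 10 to 18 for CD8+ DCs. Same-numbered arrays deviated together only weakly (r = 0.098, 0.13 and 0.047), and arrays of unlike numbers ranged from -0.19 to 0.17. So few values cannot show whether the number pairs the arrays. Signal near background, with no detection calls, limits what can be said of low genes.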
